A study of Homo sapiens with 59 samples.

Results

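DNA replication genes were followed as a set of 44 named genes that encode the machinery which licenses origins, opens the double helix, copies it and supplies the nucleotides for it. The members were picked by gene symbol and role rather than by a threshold on their values, and all 44 were found among the 19084 genes of the deposited table. All 44 also passed the filter of at least 1 TPM, the length-scaled share of a library's transcripts, in at least 3 libraries, which left 15305 genes for testing. The 59 RNA-seq libraries came from neural stem cells, which had been made from the established embryonic stem cell line WA09 (H9). All cells were first given FGF8b (200 ng per mL) and next CHIR99021, a GSK3 kinase inhibitor used to switch on the canonical WNT pathway, for between 2 and 72 h, followed by 4 days of retinoic acid. There were 20 exposure times, every 2 h up to 24 h and every 6 h after that, each with libraries A1, A2 and B1, apart from 48 h, which had A1 and A2 only. A time therefore names the length of CHIR99021 exposure, and RNA was always taken after the retinoic acid step. Cells exposed for longer were also cultured for longer in total, and cells that never received CHIR99021 were not analysed here. The labels do not say whether the replicates were separate cultures, so the p-values reflect only how far these libraries spread, which may be technical.

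In dividing cells the origin recognition complex, CDC6 and CDT1 load the ring-shaped MCM helicase onto DNA before S phase, and geminin blocks reloading once replication has begun. CDC45 and the GINS complex then switch the helicase on, polymerase alpha with primase lays down primers, and polymerases delta and epsilon extend them while held on DNA by the PCNA clamp, which replication factor C loads. Many of these genes are transcribed under E2F control as cells pass into S phase, and in neural tissue they are active in cycling stem cells and shut down in neurons.

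More members were called higher than lower after long exposure, and almost as many did not pass as passed. Comparing the 12 libraries of 54 to 72 h with the 12 libraries of 2 to 8 h, 20 of the 44 members were higher, 3 were lower and 21 did not pass limma's test at a Benjamini-Hochberg adjusted p of 0.05. Over all 15305 genes tested, 14.3% were called higher and 15.8% lower, or 30.1% in either direction. The median difference was 0.44 over the members and -0.04 over all genes tested, on the log2(TPM + 1) scale that all differences below use and that understates changes of low genes. Over the whole course, 23 of 44 members changed by a spline F-test with 4 df, against 36.8% of all genes tested. In bulk libraries such as these, a change in the share of cycling cells and a change in replication mRNA per cell cannot be told apart.

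The summed level of the 44 members averaged 2586 ± 220.2 TPM after 2 h, 2904 ± 319 TPM after 4 h and 3874 ± 257 TPM after 6 h (SD, n = 3 each). After 54 h it stood at 4734 ± 132 TPM, after 60 h at 5204 ± 147 TPM, after 66 h at 4458 ± 25.4 TPM and after 72 h at 3516 ± 194 TPM (SD, n = 3 each). The sum was thus lowest after 2 and 4 h and fell again by 72 h. Of the 44 members, 20 had their lowest time-point mean at 2 h and 11 had it at 72 h. The highest mean lay at 54 h for 11 members and at 60 h for 8. Such extremes were not counted over all genes tested, so these counts cannot set the members apart from other genes. Against 48 and 60 h, 6.54% of all genes tested were called higher at 54 h and 1.81% lower.

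**Figure D1:**
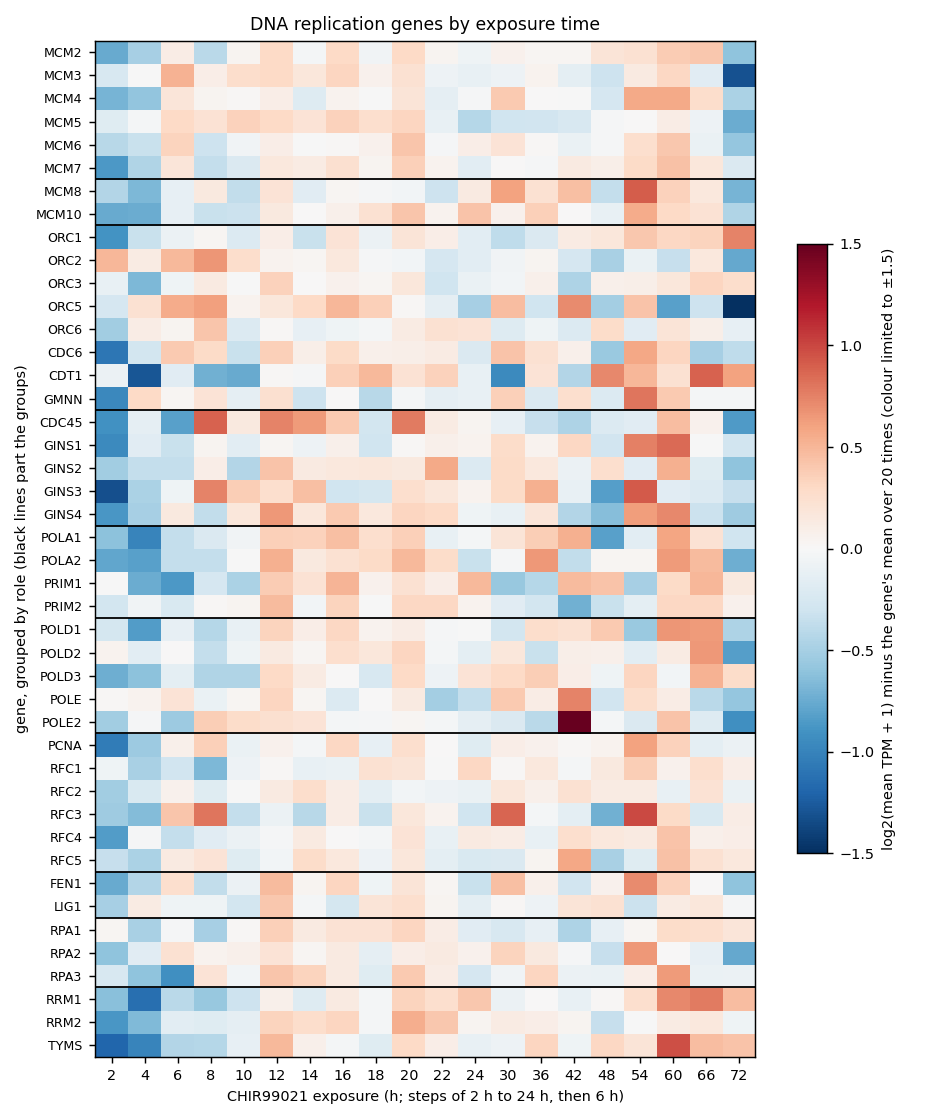
Mean level of each of the 44 members (rows, grouped by role between black lines) at each of the 20 exposure times (columns, in h), coloured as log2(mean TPM + 1) minus the mean of that gene over the 20 times. Blue cells gather at 2 and 4 h and again at 72 h, red cells at 54 and 60 h; the single dark cell of POLE2 at 42 h comes from 1 library at 174 TPM.

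The libraries differed in how many genes they detected. Genes at 1 TPM or more numbered 9348 to 13085 per library with a median of 12594, and 3 libraries had under 10000: 4 h B1, 42 h B1 and 72 h A2. TPM keep no sequencing depth, so the depth is unknown. Of the 44 members, 10 were listed at 0 in at least 1 library, and most of those zeros fell in these 3 libraries, with 4 members at 0 in 4 h B1, 3 in 42 h B1 and 4 in 72 h A2.

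The MCM2-7 helicase, the ring that unwinds parental DNA, was the most abundant multi-subunit group, and its subunits did not move alike. MCM7 had a lowest, median and highest level of 145, 295 and 359 TPM in the 54 to 72 h libraries, against 112, 181 and 298 TPM in the 2 to 8 h libraries. The ranges overlapped, and the difference was 0.55 ± 0.08 (SE; limma, adjusted p = 1.2e-06). MCM4 had 50.2, 234 and 310.3 TPM at 54 to 72 h, against 82.7, 152 and 222 TPM at 2 to 8 h, a difference of 0.46 ± 0.12 (SE; limma, adjusted p = 0.0022). MCM2 had 53.9, 182 and 225 TPM at 54 to 72 h, against 62.8, 111 and 185 TPM at 2 to 8 h, a difference of 0.52 ± 0.15 (SE; limma, adjusted p = 0.0077). For MCM2 and MCM4 the lowest late library was below the lowest early one, and both of those late values belong to 72 h A2. Each of the 2 calls was lost in 3 of 14 alternative settings: without the libraries labelled B1 the difference was 0.34 for MCM2 (limma, adjusted p = 0.1) and 0.31 for MCM4 (adjusted p = 0.12).

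MCM3 was the only helicase subunit called lower. It had 16.6, 130.5 and 182 TPM in the 54 to 72 h libraries, against 92.5, 129 and 207 TPM in the 2 to 8 h libraries, with a difference of -0.39 ± 0.15 (SE; limma, adjusted p = 0.045). This call was lost in 6 of 14 alternative settings, among them without the libraries labelled A1 (-0.36; limma, adjusted p = 0.23) and without those labelled A2 (-0.28; adjusted p = 0.18). At the last time point its 3 libraries had 75.4, 16.6 and 61.6 TPM (A1, A2 and B1). Without the 72 h time point the difference was 0.02 (limma, adjusted p = 0.94), and without the 72 h A2 library alone it was -0.23 (adjusted p = 0.14). MCM5 averaged 92.9 ± 22.3 TPM at 54 to 72 h, against 109 ± 28.2 TPM in the 2 to 8 h libraries (SD, n = 12 each) and did not pass this contrast (-0.23 ± 0.12, limma, adjusted p = 0.17). It changed over the course by the spline test (limma, adjusted p = 9.8e-05), with means of 126 TPM after 12 h, 76.3 TPM after 24 h and 111 TPM after 60 h. MCM6 averaged 99.7 ± 29.5 TPM at 54 to 72 h, against 87.3 ± 27.9 TPM in the 2 to 8 h libraries (SD, n = 12 each; limma, adjusted p = 0.27).

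The 6 subunits form a ring with one copy of each, and their shares of the summed MCM2-7 TPM were compared between windows without a test. MCM3 and MCM5 together took 17.8% to 23.4% of the summed MCM2-7 TPM in the 12 libraries of 54 to 72 h, with a median of 21.5%. In the 12 libraries of 2 to 8 h they took 25.7% to 34.8%, with a median of 30.7%. No late library reached the lowest early one. This pairing was chosen after the values were seen and is given as a description with no test. The separation of other pairings was not counted. MCM7 took a mean of 29.8 ± 3.50% at 54 to 72 h and 24.6 ± 2.20% at 2 to 8 h (SD, n = 12 each). Across the 59 libraries the 15 pairs of subunits had a median Pearson correlation of 0.556 in log2(TPM + 1), between 0.338 and 0.731, and a median of 0.486 in deviations from time-point means; over the 946 pairs of all members those medians were 0.218 and 0.0775. The points of a pair share the library, and its gene detection and its scaling to a fixed total.

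**Figure D2:**
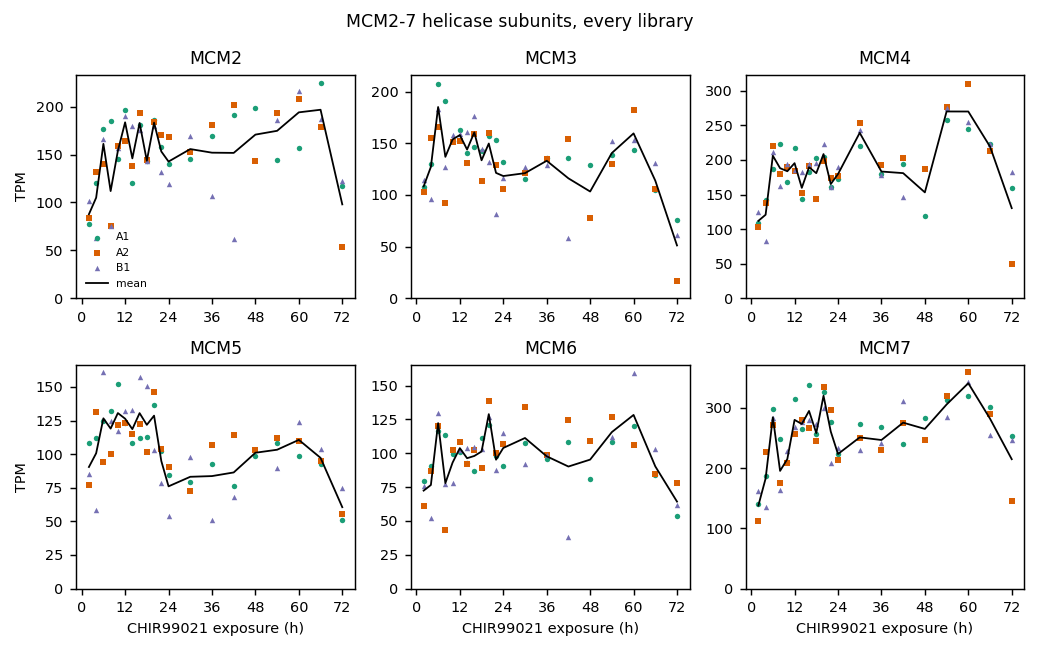
TPM of the 6 MCM2-7 subunits (vertical axes, each starting at 0) in every library against hours of CHIR99021 exposure; circles, squares and triangles are the labels A1, A2 and B1, and the black line joins time-point means. MCM2, MCM4 and MCM7 were higher at 54 to 72 h than at 2 to 8 h, and MCM3 averaged 51.2 TPM at 72 h, its lowest time-point mean.

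Promoter sequence was available for 38 of the 44 members in a RefSeq table of build GRCh38.p14, which is not the hg19 build of the files, so it is used for sequence only. The 250 bases before each annotated start were searched on both strands for the E2F-type words TTTCCCGC, TTTCGCGC, TTTGCCGC and TTTGGCGC. At least 1 match was present in 14 of 38 members (36.8%), against 627 of 13632 genes of the table with a promoter (4.6%) and 2 of 17 mitosis genes (11.8%). By outcome it was present in 5 of the 16 members called higher late, 1 of the 3 called lower and 8 of the 19 not called. A match is a run of letters and not evidence of binding, and a gene with several listed starts counts once. The upstream stretches of 3 helicase subunits are shown because their late calls were unlike: MCM6 was not called, MCM7 was called higher and MCM3 lower. The MCM3 call was lost in 6 of 14 alternative settings. Capitals mark the matches, and in MCM6 the 4 matches lie as 2 overlapping pairs, with one word on each strand.
MCM6, chr2:135876444-135876693, minus strand: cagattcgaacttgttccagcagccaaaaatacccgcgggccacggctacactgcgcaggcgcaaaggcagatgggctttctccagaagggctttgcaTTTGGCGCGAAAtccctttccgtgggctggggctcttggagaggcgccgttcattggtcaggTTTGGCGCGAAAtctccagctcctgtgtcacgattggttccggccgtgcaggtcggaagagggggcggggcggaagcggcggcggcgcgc
MCM7, first listed start, chr7:100101398-100101647, minus strand: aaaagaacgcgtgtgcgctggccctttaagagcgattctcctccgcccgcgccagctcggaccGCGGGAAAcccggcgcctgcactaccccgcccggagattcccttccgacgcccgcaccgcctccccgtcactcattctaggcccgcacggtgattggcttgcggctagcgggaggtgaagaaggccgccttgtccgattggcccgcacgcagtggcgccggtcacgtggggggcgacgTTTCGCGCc
MCM3, chr6:52284743-52284992, minus strand: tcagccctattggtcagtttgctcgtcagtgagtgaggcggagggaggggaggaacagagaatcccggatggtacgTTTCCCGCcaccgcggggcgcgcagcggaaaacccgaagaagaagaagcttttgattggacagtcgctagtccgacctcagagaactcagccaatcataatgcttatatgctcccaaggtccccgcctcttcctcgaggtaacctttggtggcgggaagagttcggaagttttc

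MCM8 and MCM10, relatives of the helicase subunits by name, were both higher late. MCM10, which helps to start the fork, had 5.15, 26.3 and 38.2 TPM at 54 to 72 h, against 7.89, 15.8 and 27.9 TPM at 2 to 8 h (0.60 ± 0.17, SE; limma, adjusted p = 0.0065). That call was lost in 3 of 14 alternative settings, among them without the libraries labelled A1 (0.56, adjusted p = 0.13) and without those labelled B1 (0.49, adjusted p = 0.078). MCM8, which acts in recombination repair, averaged 47.2 ± 20.0 TPM at 54 to 72 h, against 32.5 ± 10.5 TPM in the 2 to 8 h libraries (SD, n = 12 each; 0.46 ± 0.17, SE; limma, adjusted p = 0.035). Its call was lost in 5 of 14 alternative settings, and without the libraries labelled B1 the difference was 0.16 (adjusted p = 0.47).

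Among the 8 origin recognition and licensing genes, 2 were higher and 2 were lower late. ORC1, the subunit of the origin recognition complex that comes and goes with the cell cycle in human cells, had 21.8, 37.2 and 71.4 TPM at 54 to 72 h, against 12.8, 23.4 and 37.2 TPM at 2 to 8 h. All 4 late time-point means lay above all 4 early ones, although single libraries overlapped, and the difference was 0.75 ± 0.15 (SE; limma, adjusted p = 6.4e-05). ORC2, a core subunit, had 21.7, 46.6 and 71.2 TPM at 54 to 72 h, against 59.4, 79.2 and 120.3 TPM at 2 to 8 h. The late median was below the lowest early library, and the difference was -0.71 ± 0.14 (SE; limma, adjusted p = 5.2e-05).

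ORC5, another core subunit, was listed at 0 in 72 h A2 and had a median of 24.4 and a highest value of 61.5 TPM at 54 to 72 h, against 14.9, 53.1 and 70.8 TPM at 2 to 8 h (-1.07 ± 0.29, SE; limma, adjusted p = 0.0032). At 54 h its 3 libraries still had 41.9, 61.5 and 52.8 TPM, within the early range, and the low values lay at 60 h and after. Without 72 h A2 the difference was -0.72, and without the 72 h time point it was -0.53 (adjusted p = 0.054). ORC3 averaged 46.9 ± 6.38 TPM at 54 to 72 h, against 36.2 ± 10.3 TPM in the 2 to 8 h libraries (SD, n = 12 each; limma, adjusted p = 0.061). ORC6 averaged 80.0 ± 24.8 TPM late and 82.4 ± 29.5 TPM early (limma, adjusted p = 0.90).

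CDT1, the loading factor that geminin binds, had 14.9, 34.1 and 70.9 TPM at 54 to 72 h, against values listed at 0 in 4 h B1 and 8 h B1, a median of 18.9 and a highest value of 25.6 TPM at 2 to 8 h. The difference of 1.44 ± 0.39 (SE; limma, adjusted p = 0.0038) includes those zeros, and without the libraries labelled B1 it was 0.80 (limma, adjusted p = 0.045). GMNN, which encodes geminin, averaged 80.2 ± 34.8 TPM at 54 to 72 h, against 62.3 ± 30.2 TPM in the 2 to 8 h libraries (SD, n = 12 each; limma, adjusted p = 0.14). CDC6 did not differ between these windows beyond its spread (0.16 ± 0.11, limma, adjusted p = 0.32) but changed over the course (spline test, adjusted p = 0.0017): its time-point mean was 24.9 TPM after 2 h, 71.1 TPM after 6 h, 36.3 TPM after 48 h, 80.6 TPM after 54 h and 41.1 TPM after 72 h.

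CDC45 and the GINS complex, which turn the loaded MCM ring into an active helicase, gave 2 of 5 members higher late. GINS1 had 32.6, 90.0 and 138 TPM at 54 to 72 h, against 29.5, 52.7 and 85.9 TPM at 2 to 8 h (0.69 ± 0.12, SE; limma, adjusted p = 2e-05). The call of GINS1 was lost in 1 of 14 alternative settings (limma, adjusted p = 0.079). Its high libraries were those of 54 and 60 h, with time-point means of 114 and 121 TPM, and at 72 h it averaged 54.5 TPM. GINS4 had 6.07, 20.7 and 30.7 TPM at 54 to 72 h, against 20.6 TPM at most, a median of 13.4 TPM and a value listed at 0 in 4 h B1 at 2 to 8 h (0.69 ± 0.27, SE; limma, adjusted p = 0.044). That call was lost in 10 of 14 alternative settings, and without the 3 libraries of under 10000 genes the difference was 0.21. GINS2, GINS3 and CDC45 did not pass, with differences of 0.19, 0.19 and -0.01 and SEs of 0.38, 0.44 and 0.34.

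Polymerase alpha-primase, the complex that starts each new strand, gave 2 of 4 members higher late. POLA1, its catalytic subunit, averaged 67.8 ± 19.2 TPM in the libraries of 54 to 72 h, against 42.9 ± 10.7 TPM in those of 2 to 8 h (SD, n = 12 each; 0.64 ± 0.10, SE; limma, adjusted p = 1.1e-06). Its late median of 62.2 TPM was just above its highest early library, at 61.7 TPM. PRIM1, the catalytic primase subunit, averaged 60.9 ± 23.2 TPM at 54 to 72 h, against 40.4 ± 17.0 TPM in the 2 to 8 h libraries (SD, n = 12 each; 0.61 ± 0.18, SE; limma, adjusted p = 0.0067). Its call was lost without the libraries labelled A1 (0.63; adjusted p = 0.077) and without those labelled A2 (0.42; adjusted p = 0.1). PRIM2 differed by 0.31 ± 0.32 and POLA2 by 0.42 ± 0.32 (SE), and neither passed.

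Of the 5 subunits of polymerases delta and epsilon, 1 was higher late. POLD3, an accessory subunit of polymerase delta, had 29.3, 48.5 and 70.4 TPM at 54 to 72 h, against 17.8, 28.2 and 44.5 TPM at 2 to 8 h (0.76 ± 0.12, SE; limma, adjusted p = 2.9e-06), and all its late time-point means lay above the early ones. POLD1, the catalytic subunit of polymerase delta, averaged 85.3 ± 39.0 TPM at 54 to 72 h, against 56.9 ± 19.3 TPM in the 2 to 8 h libraries (SD, n = 12 each; limma, adjusted p = 0.052). Its libraries were split within the late window, with 46.1 to 53.5 TPM at 54 h, 97.7 to 134 TPM at 60 h and 14.2 to 78.7 TPM at 72 h. POLE, the catalytic subunit of polymerase epsilon, averaged 19.0 ± 5.90 TPM at 54 to 72 h, against 21.3 ± 4.45 TPM in the 2 to 8 h libraries (SD, n = 12 each; limma, adjusted p = 0.46). POLD2 and POLE2 did not pass either (limma, adjusted p = 0.72 and 0.63).

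PCNA, the sliding clamp, was the second most abundant member by mean TPM, and 3 of the 6 genes of the clamp and its loader were higher late. PCNA had 227, 378 and 548 TPM at 54 to 72 h, against 135, 308 and 557 TPM at 2 to 8 h (0.45 ± 0.11, SE; limma, adjusted p = 0.00088). The ranges almost coincided, and the early window itself held the steepest climb of the gene, with time-point means of 162 TPM after 2 h, 231 TPM after 4 h, 357 TPM after 6 h and 432 TPM after 8 h. Without the 2 h time point the difference was 0.20 (limma, adjusted p = 0.21). RFC4 had 142, 195 and 269 TPM at 54 to 72 h, against 80.4, 132 and 277 TPM at 2 to 8 h (0.55 ± 0.13, SE; limma, adjusted p = 0.0011). The call of RFC4 was lost without the libraries labelled A1 (0.48; adjusted p = 0.084). RFC1, the large subunit of the clamp loader, had 28.2, 103 and 131 TPM at 54 to 72 h, against 32.1, 67.1 and 83.8 TPM at 2 to 8 h (0.52 ± 0.16, SE; limma, adjusted p = 0.0082). The call of RFC1 was lost in 4 of 14 alternative settings, with a difference of 0.53 without the libraries labelled A1 (limma, adjusted p = 0.099), 0.41 without those labelled B1 (adjusted p = 0.092) and 0.32 for 66 and 72 h minus 2 and 4 h (adjusted p = 0.31). For RFC1 and RFC4 every late time-point mean was above every early one. RFC2, RFC3 and RFC5 were higher in mean but did not pass, with differences of 0.25, 0.42 and 0.28.

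FEN1, the nuclease that trims Okazaki fragment flaps, averaged 73.7 ± 30.2 TPM at 54 to 72 h, against 53.1 ± 26.6 TPM at 2 to 8 h (SD, n = 12 each), with 4 h B1 listed at 0. LIG1, the ligase that seals them, averaged 38.9 ± 10.4 TPM late and 36.0 ± 9.62 TPM early (SD, n = 12). Neither passed (limma, adjusted p = 0.079 and 0.61). Of the 3 subunits of replication protein A, which coats single-stranded DNA, RPA1 had 120.2, 164 and 181 TPM at 54 to 72 h, against 32.6, 129.5 and 163 TPM at 2 to 8 h (0.51 ± 0.17, SE; limma, adjusted p = 0.017). The call of RPA1 was lost in 2 of 14 alternative settings, among them without the libraries labelled A2 (0.47; limma, adjusted p = 0.15). Leaving out each label in turn gave differences of 0.35 to 0.69. RPA3 was also called (0.54 ± 0.21, SE; limma, adjusted p = 0.049), but that call was lost in 11 of 14 alternative settings. RPA2 did not differ between the windows beyond its spread (0.06 ± 0.07, SE; limma, adjusted p = 0.57), although its level changed over the course (spline test, adjusted p = 0.00014).

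All 3 enzymes of nucleotide supply were higher late, and 2 of them gave the 2 smallest adjusted p of the set. TYMS, thymidylate synthase, which makes the thymidine nucleotide, had 344, 533 and 788 TPM at 54 to 72 h, against 141, 197 and 330.5 TPM at 2 to 8 h. The late and early libraries did not overlap, and the difference was 1.27 ± 0.10 (SE; limma, adjusted p = 4.1e-14). RRM1, the large subunit of ribonucleotide reductase, had 189, 287 and 359 TPM at 54 to 72 h, against 45.1, 125 and 151 TPM at 2 to 8 h, again with no overlap (1.27 ± 0.11, SE; limma, adjusted p = 1.1e-12). These were the only 2 of the 44 members whose late and early libraries did not overlap. How many of all genes tested had no overlap was not counted, so this count cannot set the members apart from other genes. RRM2, the small subunit made in S phase, had 92.1, 102 and 130.3 TPM at 54 to 72 h, against 43.9, 62.7 and 122 TPM at 2 to 8 h (0.56 ± 0.11, SE; limma, adjusted p = 5.5e-05). RRM2 had its highest time-point mean at 20 h, 146 ± 4.96 TPM, and RRM1 at 66 h, 322 ± 36.1 TPM (SD, n = 3 each), and the difference between these courses was not tested. The upstream stretches of TYMS and RRM1 are shown because, among the 44 members, only their late and early libraries did not overlap. TYMS has 1 match to the E2F-type words, in capitals, and RRM1 has none.
TYMS, chr18:657403-657652, plus strand: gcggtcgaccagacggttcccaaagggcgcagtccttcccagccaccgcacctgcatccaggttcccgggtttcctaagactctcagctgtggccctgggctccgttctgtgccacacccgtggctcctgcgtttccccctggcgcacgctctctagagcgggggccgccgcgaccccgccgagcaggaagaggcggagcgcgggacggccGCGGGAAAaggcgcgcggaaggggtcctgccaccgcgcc
RRM1, chr11:4094435-4094684, plus strand: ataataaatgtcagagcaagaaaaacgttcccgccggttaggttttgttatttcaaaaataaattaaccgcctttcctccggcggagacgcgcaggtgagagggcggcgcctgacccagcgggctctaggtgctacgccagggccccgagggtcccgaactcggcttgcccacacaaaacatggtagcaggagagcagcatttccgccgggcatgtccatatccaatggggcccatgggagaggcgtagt

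**Figure D3:**
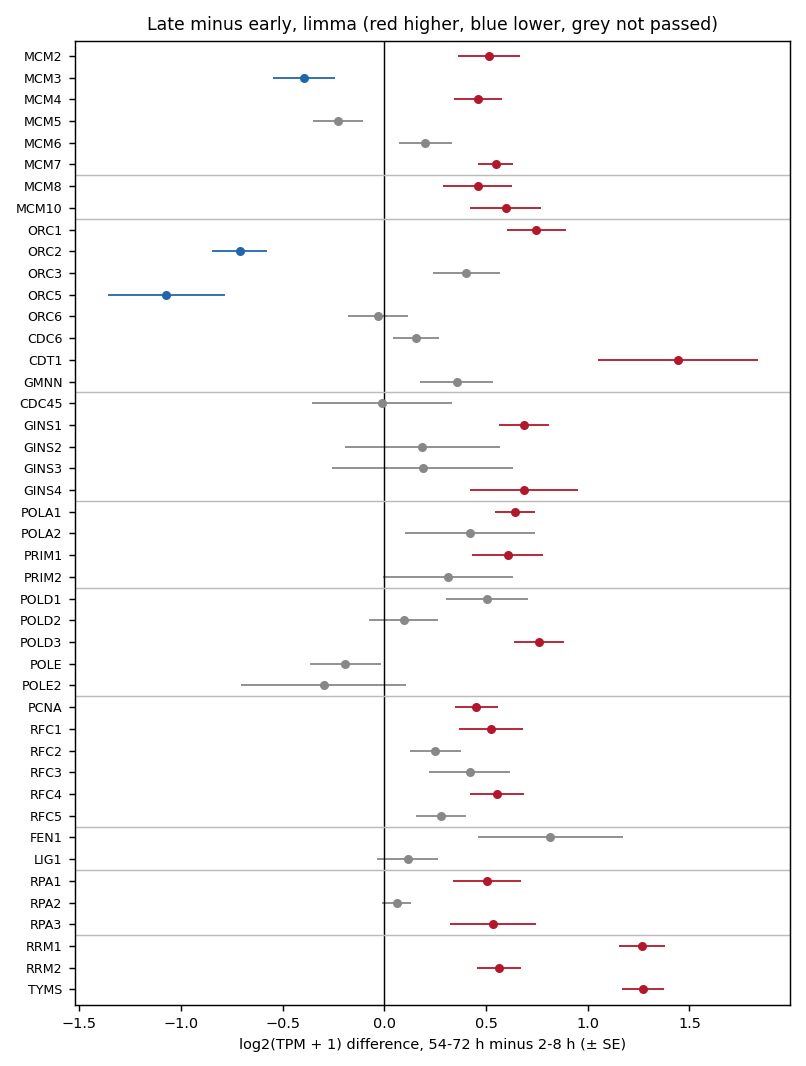
Difference in log2(TPM + 1) between the 54 to 72 h and the 2 to 8 h libraries (horizontal axis; points are limma estimates, bars are ± 1 SE) for the 44 members, in the same order of roles as the heatmap. The 20 members called higher are red, the 3 called lower (MCM3, ORC2 and ORC5) blue and the 21 others grey; TYMS and RRM1 stand apart at 1.27 with short bars, while CDT1 at 1.44 has a long one.

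Some of these loci overlap others. In a RefSeq annotation, 8 members overlap another protein-coding gene, among them MCM7 with AP4M1, ORC1 with PRPF38A, RPA3 with UMAD1 and TYMS with ENOSF1. Whether the authors' counting used strand is not stated in what was read here. Pseudogenes by name exist for 10 members, PCNA, RPA2, RRM2 and TYMS among them, and none of these pseudogenes is a row of the table. Values of such genes are uncertain to the extent that reads were shared.

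Part of the difference was present by 10 to 16 h. In the 12 libraries of 10 to 16 h, 12 of the 44 members were higher than at 2 to 8 h and none was lower (limma; 27 members had an unadjusted p under 0.05), where 3.8% of all genes tested were called higher, 3.67% lower and 7.47% in either direction. The median difference was 0.36 over the members and 0.01 over all genes tested. POLA1 had 54.1, 80.5 and 88.5 TPM at 10 to 16 h, against 21.2, 41.9 and 61.7 TPM at 2 to 8 h (0.83 ± 0.10, SE; limma, adjusted p = 4.4e-08). TYMS had 288, 394 and 531 TPM at 10 to 16 h, against 141, 197 and 330.5 TPM at 2 to 8 h (0.87 ± 0.10, SE; limma, adjusted p = 2.8e-08). RRM2 had 78.0, 123 and 143 TPM at 10 to 16 h, against 43.9, 62.7 and 122 TPM at 2 to 8 h (0.71 ± 0.11, SE; limma, adjusted p = 9.2e-06). The ranges of all 3 overlapped. The other members called were MCM2, MCM7, GINS4, PRIM1, POLD1, POLD3, PCNA, RPA2 and RRM1, with differences between 0.23 and 0.97.

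The early window was itself uneven, and against 6 and 8 h alone 4 of the 44 members were called higher and none lower at 10 to 16 h, where 2.8% of all genes tested were called higher, 2.37% lower and 5.17% in either direction. In that comparison, added after the data were seen, PCNA differed by -0.14 and RPA2 by -0.04. RPA2 averaged 131 ± 6.82 TPM after 2 h, 176 ± 28.5 TPM after 4 h, 234 ± 7.46 TPM after 6 h and 207 ± 12.0 TPM after 8 h (SD, n = 3 each). The 2 h libraries were therefore low for this gene as they were for PCNA.

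Later steps between neighbouring windows moved few members. At 18 to 24 h against 10 to 16 h no member was called by limma, with 2 at an unadjusted p under 0.05 (MCM5 and RRM1), where 3.6% of all genes tested were called higher, 2.74% lower and 6.34% in either direction. At 30 to 48 h (11 libraries) against 18 to 24 h again none was called, with 5 at an unadjusted p under 0.05, where 0.451% of all genes tested were called higher, 1.11% lower and 1.56% in either direction. At 54 to 72 h against 30 to 48 h, 3 members were higher, against 2.86% of all genes tested called higher, 2.7% lower and 5.57% in either direction. These were RRM1 (0.61 ± 0.12, SE; limma, adjusted p = 0.00033), TYMS (0.39 ± 0.10, SE; limma, adjusted p = 0.016) and ORC1 (0.50 ± 0.15, SE; limma, adjusted p = 0.037). Without the libraries labelled A1 none of these 3 was called.

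**Figure D4:**
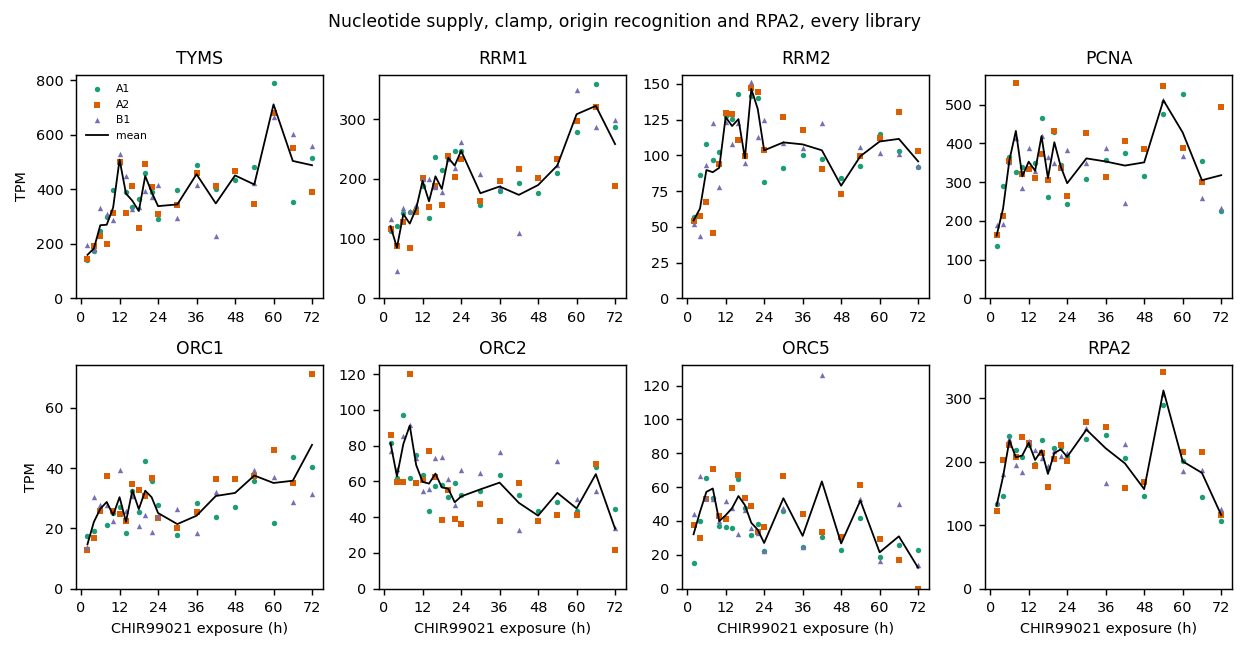
TPM of 8 members (vertical axes, each starting at 0) in every library against hours of CHIR99021 exposure, with the labels A1, A2 and B1 as circles, squares and triangles and the time-point means as a black line. Every 54 to 72 h library of TYMS and RRM1 lies above every 2 to 8 h library, ORC2 and ORC5 are lower late with overlapping libraries, and RPA2 and PCNA have their highest time-point means at 54 h, 312 and 512 TPM.

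At 54 h the share of members called was close to that of all genes. Against 48 and 60 h, 4 of the 44 members were higher at 54 h (RPA2, RFC3, CDC6 and MCM8) and none lower, where 6.54% of all genes tested were called higher, 1.81% lower and 8.35% in either direction. RPA2 had 289, 341 and 307 TPM in the 3 libraries of 54 h, against 146 and 168 TPM in the 2 of 48 h and 200.3, 216 and 185 TPM in the 3 of 60 h. No neighbouring library reached the lowest of 54 h, the difference was 0.81 ± 0.13 (SE; limma, adjusted p = 1.4e-05), and RPA2 passed in every alternative tried. RFC3 had 80.0, 84.2 and 93.6 TPM at 54 h, against 30.9 and 20.1 TPM at 48 h and 39.9, 57.7 and 59.7 TPM at 60 h (1.23 ± 0.36, SE; limma, adjusted p = 0.022). CDC6 had 70.1, 90.7 and 80.9 TPM at 54 h, against 37.4 and 35.1 TPM at 48 h and 71.3, 84.2 and 47.0 TPM at 60 h, so that it overlapped with 60 h (0.70 ± 0.20, SE; limma, adjusted p = 0.021).

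The direction at 54 h depends on the scaling. The median difference of all genes tested in this contrast was 0.10 with TPM as deposited, and the members' median was 0.07. Over all genes tested 1001 were called higher and 277 lower at 54 h as deposited, against 590 higher and 579 lower with median-ratio scaling and 706 higher and 549 lower with quantile normalization. With median-ratio scaling 1 member was higher, RPA2, and 3 were lower, and with quantile normalization 2 were higher and 2 lower. At 30 h no member was called against 24 and 36 h by limma (2 at an unadjusted p under 0.05; 2.55% of all genes tested were called higher, 1.95% lower and 4.5% in either direction). RFC3 had 63.3, 98.2 and 75.1 TPM at 30 h and averaged 41.8 ± 2.52 TPM at 36 h (SD, n = 3; adjusted p = 0.084 for the contrast). The 54 h deviation was also tested against the 30 h deviation in limma, where 6 of 15305 genes tested (0.0392%) and no member passed, so the count says nothing about the members in particular. RPA2 came closest, with an unadjusted p of 0.00205 in that limma contrast and an adjusted p of 0.45. The 14 hypoxia genes measured beside the members were low at both times: their summed TPM was 6007 to 6115 at 30 h, against 9040 to 9723 at 24 h and 10677 to 11226 at 36 h. It was 6264 to 6644 at 54 h, against 9349 to 11081 at 48 h and 11714 to 12010 at 60 h. By limma 9 of the 14 were called lower at 30 h and 11 of the 14 at 54 h. Their part in the members' values was not tested.

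**Figure D5:**
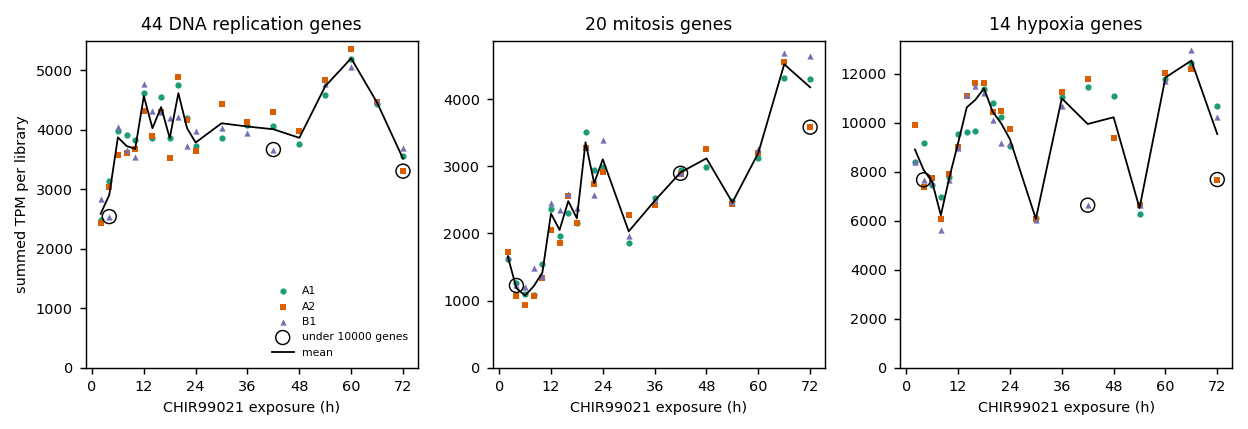
Summed TPM per library (vertical axes, each starting at 0) of the 44 members, the 20 mitosis genes and the 14 hypoxia genes against hours of CHIR99021 exposure; symbols are the labels A1, A2 and B1, black rings mark the 3 libraries with under 10000 genes, and lines join time-point means. The replication genes averaged 5204 TPM at 60 h and 3516 TPM at 72 h, while the mitosis genes averaged 4525 TPM at 66 h and 4182 TPM at 72 h.

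The other genes of the cell cycle were read from lists chosen with earlier results of these data known. Between 54 to 72 h and 2 to 8 h, 14.3% of all genes tested were called higher and 15.8% lower. Of 36 further replication genes, 17 were higher and 3 lower late, with a median of 0.28. RRM2B, the p53-inducible small subunit of ribonucleotide reductase, averaged 116 ± 43.7 TPM at 54 to 72 h, against 42.7 ± 11.8 TPM in the 2 to 8 h libraries (SD, n = 12 each; 1.37 ± 0.12, SE; limma, adjusted p = 3.8e-13). CDC7, the kinase that fires licensed origins, averaged 140 ± 37.3 TPM at 54 to 72 h, against 65.1 ± 16.4 TPM in the 2 to 8 h libraries (SD, n = 12 each; 1.09 ± 0.11, SE; limma, adjusted p = 1.5e-11). TIPIN, a fork protection factor, was lower (-1.23 ± 0.41, SE; limma, adjusted p = 0.017). Of 23 genes that control entry into S phase, 9 were higher and none lower; 10 of the 23 had an unadjusted p under 0.05. CCNA2, the cyclin of S phase and G2, averaged 162 ± 58.5 TPM at 54 to 72 h, against 53.8 ± 17.1 TPM in the 2 to 8 h libraries (SD, n = 12 each; limma, adjusted p = 3.1e-16). E2F7, a repressor of E2F targets, averaged 37.2 ± 7.91 TPM late and 12.4 ± 6.13 TPM early (limma, adjusted p = 1.1e-10). E2F1 did not pass (0.75 ± 0.39, limma, adjusted p = 0.15).

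All 20 mitosis genes were higher late, with a median difference of 1.36 against 0.44 for the 44 members. TOP2A, the topoisomerase that untangles sister chromatids, had 344, 566 and 969 TPM at 54 to 72 h, against 86.8, 143 and 267 TPM at 2 to 8 h, without overlap (2.03 ± 0.09, SE; limma, adjusted p = 6.2e-22). The summed mitosis genes were 2435 to 4688 TPM at 54 to 72 h, against 927 to 1719 TPM at 2 to 8 h, also without overlap. The summed replication genes were 3305 to 5354 TPM late and 2438 to 4054 TPM early and overlapped. At 18 to 24 h against 10 to 16 h, 11 of the 20 mitosis genes were called higher and none of the 44 members was, a contrast that was not tested as a difference between the lists. Of 7 inhibitors of cyclin-dependent kinases tested, 5 were higher late. CDKN1A, which encodes p21, had 10.1, 57.1 and 90.3 TPM at 54 to 72 h, against a highest value of 30.3 TPM, a median of 8.12 TPM and 2 libraries listed at 0 at 2 to 8 h (2.87 ± 0.39, SE; limma, adjusted p = 9.3e-08).

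Markers of cell types were read in the same contrast, where 14.3% of all genes tested were called higher and 15.8% lower. Of the neural stem cell markers, NES was at 191 to 499 TPM at 54 to 72 h, against 108 to 199 TPM at 2 to 8 h. PAX6 was at 85.7 to 177 TPM late and 166 to 259 TPM early. SOX1 was near 0 early, with 1.14 to 32.5 TPM at 54 to 72 h and at most 4.13 TPM at 2 to 8 h. SOX2, HES5 and FABP7 were higher late by 2.12, 2.55 and 3.05 (limma, adjusted p = 9e-08, 7e-07 and 2.6e-05), and each was listed at 0 in at least 1 early library. Of 10 such markers 7 were higher and 2 lower late, PAX6 and CDH2 (-0.82 for CDH2, limma, adjusted p = 1.3e-09). Their summed level did not rise, with 2108 to 3726 TPM at 54 to 72 h, against 2117 to 4238 TPM at 2 to 8 h. Of 10 neuron markers 9 were higher, with a summed level of 273 to 567 TPM at 54 to 72 h, against 194 to 346 TPM at 2 to 8 h. All 10 epithelium markers were lower, with a summed level of 484 to 796 TPM at 54 to 72 h, against 1416 to 3861 TPM at 2 to 8 h. CLDN7, ESRP1 and GRHL2 were listed at 0 in all 12 late libraries. All 8 endoderm markers tested were lower, with a summed level of 46.8 to 148 TPM at 54 to 72 h, against 208 to 645 TPM at 2 to 8 h. Of 9 mesoderm and fibroblast markers 3 were higher and 2 lower, with a summed level of 740 to 1227 TPM at 54 to 72 h, against 675 to 1061 TPM at 2 to 8 h. Of 7 pluripotency markers 2 were lower, with a summed level of 888 to 1385 TPM at 54 to 72 h, against 1485 to 3181 TPM at 2 to 8 h, mostly LIN28A. With 2 of 7 called, the pluripotency list was close to the 30.1% of all genes tested that were called in either direction. The part of these cell types in the members' differences was not tested.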

How the data were processed

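RNA was measured in 59 libraries. Per the labels' protocols, oligo-dT beads selected mRNA out of 100 ng of RNA, cDNA went through 18 PCR cycles, and reads were single and 51 bp long. The authors deposited TPM for 19084 gene symbols; CASAVA 1.8.2, Bowtie 0.12.8, RSEM 1.2.3 and build hg19 are named in the submitters' processing notes, and the gene models behind them are not given in the sources used here. TPM have the same sum in each library and keep no depth, so no counting interval was computed. Per the design text, the submitters left out replicate B1 of 48 h. TICRR is listed under an older symbol.

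From these, log2(TPM + 1) was tested with limma 3.58.1 in R 4.3.3 (intensity trend, Benjamini-Hochberg adjustment over 15305 genes, threshold 0.05), using a 4 df spline of hours and contrasts of 20 time-point means with 39 residual df. Windows held 4 time points. The fits were tested on simulated data. The members, gene lists and naming rule were chosen with earlier results of these data known. Named were, per role, the most abundant members, the largest differences and those against their group, and up to 4 genes of other lists. Alternatives varied pseudocount, filter, scaling, spline, windows, libraries and a replicate block. Motifs were searched and figures drawn in Python 3.11.15 with matplotlib 3.10.9.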

Additional observations from a re-analysis of the deposited data

How the results depend on the processing

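Of the 23 members called late minus early, 9 passed in every alternative: CDT1, MCM7, ORC1, ORC2, POLA1, POLD3, RRM1, RRM2 and TYMS. Leaving out each replicate label gave 14 to 20 members called late minus early, 5 to 10 at 10 to 16 h minus 2 to 8 h, 0 to 3 at 54 to 72 h minus 30 to 48 h and 1 to 4 at 54 h. Over all genes tested these ranges were 2956 to 4227, 425 to 782, 328 to 727 and 210 to 1145. Without the 3 libraries of fewer than 10000 genes, 20 were called at 10 to 16 h, 1 at 18 to 24 h minus 10 to 16 h, 5 at 54 to 72 h minus 30 to 48 h, 3 at 30 h and 10 at 54 h. In the same order that setting called 1789, 2008, 1331, 1707 and 2598 of all genes tested. Against 6 and 8 h alone, 4 were called at 10 to 16 h, beside 792 of all genes tested. Quantile normalization gave 1 at 18 to 24 h minus 10 to 16 h, beside 1242 of all genes tested. The cause was not tested. Counts over all genes depended on which libraries were used: late minus early 2956 genes were called without A1, against 4606 with all labels, and over the course 3232 without A1, against 5629. Leaving out single labels or the 3 libraries gave 425 to 1789 genes at 10 to 16 h, against 1143 with all; 261 to 2008 at 18 to 24 h, against 971; 82 to 466 at 30 to 48 h, against 239; 328 to 1331 at 54 to 72 h minus 30 to 48 h, against 852; 191 to 1707 at 30 h, against 688; and 210 to 2598 at 54 h, against 1278. At 30 h 390 genes were higher and 298 lower as deposited, against 348 and 398 with median-ratio scaling and 391 and 475 with quantile normalization.

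Deviations of libraries with the same label were nearly uncorrelated: 8 of 551 same-label pairs correlated above 0.1. The median was 0.0049, against -0.0023 for pairs with different labels. Even so, 32 of 59 libraries were closest on average to their own label of the 3, and a weak shared part by label was not tested. With the replicate block, 23 members were called over the course, 23 late minus early, 12 at 10 to 16 h, 3 at 54 to 72 h minus 30 to 48 h and 3 at 54 h. In the same order the block called 5616, 4610, 1133, 894 and 1276 of all genes tested.

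Some late minus early signs turned. MCM3 gave 0.0187 without 72 h. ORC6 gave -0.113 to 0.113 over the 3 leave-one-label-out fits, 0.0260 without 6, 30 and 54 h, 0.125 for 66 and 72 h minus 2 and 4 h, and 0.0515 without 72 h. CDC6 gave -0.158 without 2 h. CDC45 gave -0.389 to 0.492 without single labels, 0.155 with quantile normalization, 0.355 without the 3 libraries, 0.397 without 72 h and 0.317 without 72 h A2. GINS3 gave -0.431 to 0.797 without single labels, -0.0798 without 6, 30 and 54 h and -0.146 without 2 h. POLD2 gave -0.152 to 0.295 without single labels and -0.0398 for 66 and 72 h minus 2 and 4 h. Without single labels POLE gave -0.353 to 0.0174, POLE2 -0.924 to 0.210 and LIG1 -0.0156 to 0.229, and LIG1 gave -0.0014 without 2 h. RPA2 gave -0.0578 without 6, 30 and 54 h, -0.0639 for 66 and 72 h minus 2 and 4 h and -0.0996 without 2 h. At 10 to 16 h against 6 and 8 h, PCNA gave -0.145 and RPA2 -0.0357. Of these, only MCM3 late minus early and PCNA and RPA2 at 10 to 16 h had been called. The comparisons with 6 and 8 h and those without 2 h, 72 h, 72 h A2 or 48 h A1 were chosen after seeing the data.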
